A study of Mus musculus with 8 samples.

Results

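Brown adipose tissue is densely supplied by sympathetic nerves, and the genes described here are 36 nerve, Schwann cell and innervation genes measured in brown fat with and without the transcription factor Prdm16. They were found as the non-control array probes whose gene name was on a fixed list. Of the 36 listed genes, 35 had a probe under their name, with 49 probes in all, and 23 were bright enough to be tested among the 21742 genes tested in the whole series. The listed gene without a probe under its name was Ncmap. The study set RNA from Prdm16 KO brown adipose tissue against RNA from WT brown adipose tissue of the same age on Agilent 2-colour arrays, which read 2 dye-labelled samples on the same spots. There were 4 arrays from 6-week-old mice and 4 from 11-month-old mice. In each age, 2 arrays carried the knockout RNA in Cy3 and 2 carried it in Cy5. The labels give 4 biological replicates per condition and do not say in which cells or from what age Prdm16 was deleted, nor the strain of the mice. The ages were run as separate batches, so age and batch cannot be told apart.

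Sympathetic axons release noradrenaline onto brown adipocytes, which raises cAMP in these cells and drives heat production. Their enzymes are proteins of the axon, but most of the RNA of a sympathetic neuron lies in its cell body in the ganglion, outside the fat pad. Schwann cells, the glia of peripheral nerve, lie in the pad together with their axons, and fat cells themselves secrete factors that act on nerves. In such whole tissue, fewer cells of a type and less RNA per cell cannot be told apart.

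Of all non-control spots, between 61.2% and 68.2% were well above background in each channel, and the number of arrays limits the precision. Correlations between arrays of 1 age, across genes, were taken on log2 ratios from which the fitted dye effect had been subtracted. They ran from 0.447 to 0.660 at 6 weeks and from 0.692 to 0.894 at 11 months. The Prdm16 probe read -0.58 on the log2 scale at 6 weeks (SE 0.17, adjusted p = 0.0637) and -0.58 at 11 months (SE 0.17, adjusted p = 0.0295). The labels do not give the deleted exons, so it is not known whether this probe lies in them. Of the brown adipocyte markers other than Prdm16 itself, all 7 were tested and all 7 were lower in the knockout at 11 months, against 19.6% of all genes tested. These counts take an adjusted p below 0.05 in limma. At 6 weeks 0 of the 7 were lower by that threshold, against 6.01% of all genes tested. The median log2 ratio of 10 skeletal muscle markers differed between arrays of 1 age, from -3.40 to 2.65 at 6 weeks and from -1.16 to 1.69 at 11 months.

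Few of the neuron genes on the list gave a signal. The transmitter group on the list includes the receptor gene Npy1r. In this group, Th and Npy1r were well above background in all 16 channel measurements (8 arrays, 2 channels), Dbh in 6 and Npy in 1. Ddc, which makes dopamine from L-DOPA, and Vip, a neuropeptide of autonomic nerves, were at 0 of 16. Of the 7 axon and neuron cytoskeleton genes, Stmn2 alone was tested, with 16 of 16. The neurofilament genes Nefl, Nefm and Nefh and the neuronal tubulin gene Tubb3 were at 0 of 16, and Uchl1 and Gap43 at 1 of 16. Among the neurotrophic genes, Nrg1 and Gdnf were at 0 of 16 and the GDNF co-receptor gene Gfra1 at 2 of 16. The filter asked for 4 of 16 measurements, so Gfap and Sema3a, with 4 each, lay just inside it and Gfra1 just outside. Of the 11 Schwann cell, glia and myelin genes on the list, 10 were tested. Among the further genes described below, 20 of 28 of sympathetic neurons and 21 of 25 of Schwann cells and myelin were tested. Of all 31896 genes on the array, 21742 were tested.

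**Figure D1:**
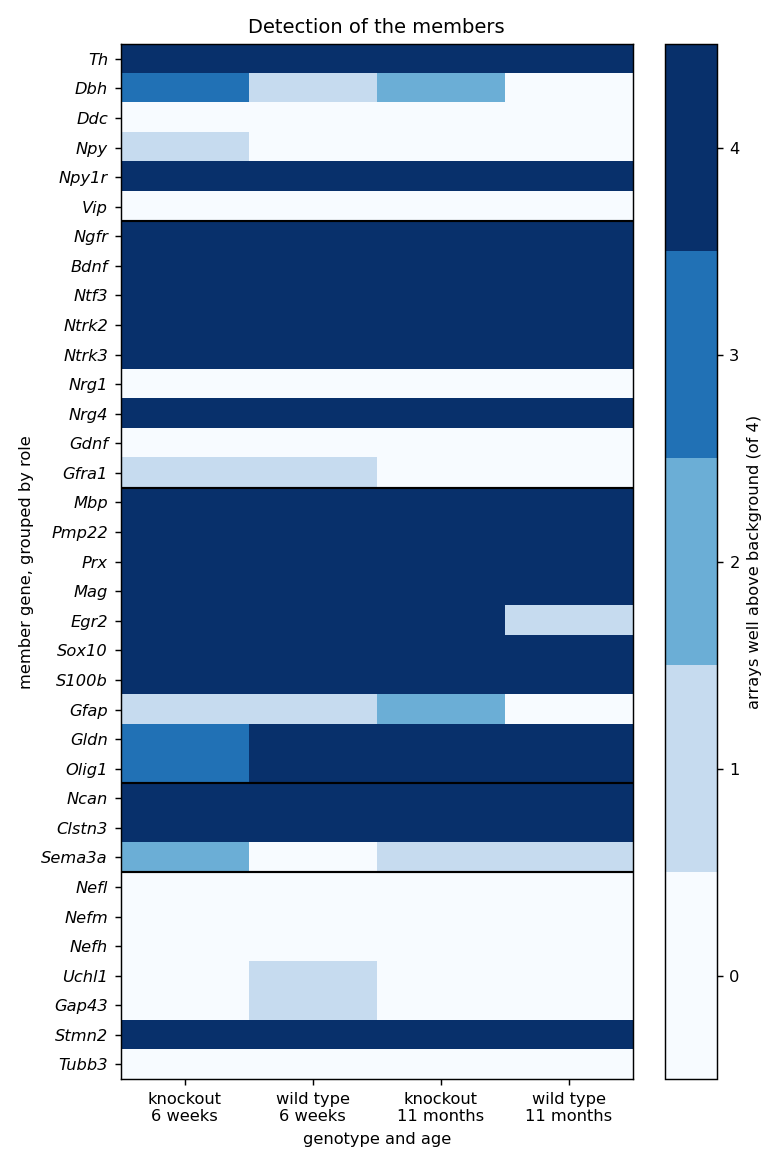
Number of arrays, of 4, on which each of the 35 members with a probe was well above background, in knockout and wild-type tissue at 6 weeks and 11 months; where a gene had several probes the brightest is shown, and black lines separate the roles. Neurofilament genes, Tubb3, Ddc, Vip, Nrg1 and Gdnf are at 0 in every column, while Mbp, Pmp22, Prx, Mag, Sox10 and S100b are at 4 in every column.

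Of the 23 tested members, 8 passed an adjusted p of 0.05 in limma at 6 weeks (34.8%), against 14.1% of all genes tested. There 4 were higher in the knockout (Bdnf, Pmp22, Ncan and Sema3a; background 8.04%) and 4 lower (Prx, Gldn, Olig1 and Clstn3; background 6.01%). At 11 months 11 passed (47.8%), against 40.6% of all genes. Of these 11, 5 were higher (Npy1r, Nrg4, Pmp22, Egr2 and Gfap; background 21%) and 6 lower (Th, Ntrk3, S100b, Gldn, Olig1 and Clstn3; background 19.6%). Sema3a and Gfap passed the filter only through the readings of the group in which each was called higher, so those calls were not independent of the filter. Without them 7 of 22 members passed at 6 weeks (31.8%), 3 higher and 4 lower, and 10 of 22 at 11 months (45.5%), 4 higher and 6 lower. The change of the ratio between the ages itself passed for 3 members, Th, Prx and Ncan (13%), against 21% of all genes. The ratio of knockout over wild type was higher at 11 months than at 6 weeks for Prx (background 9.81%). For Th and Ncan this ratio was lower at 11 months (background 11.2%). The members were chosen with earlier results of these data known, so these shares are descriptions. Their median log2 ratio of knockout over wild type was 0.04 at 6 weeks and 0.02 at 11 months, beside -0.0011 and 0.012 for all genes tested.

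**Figure D2:**
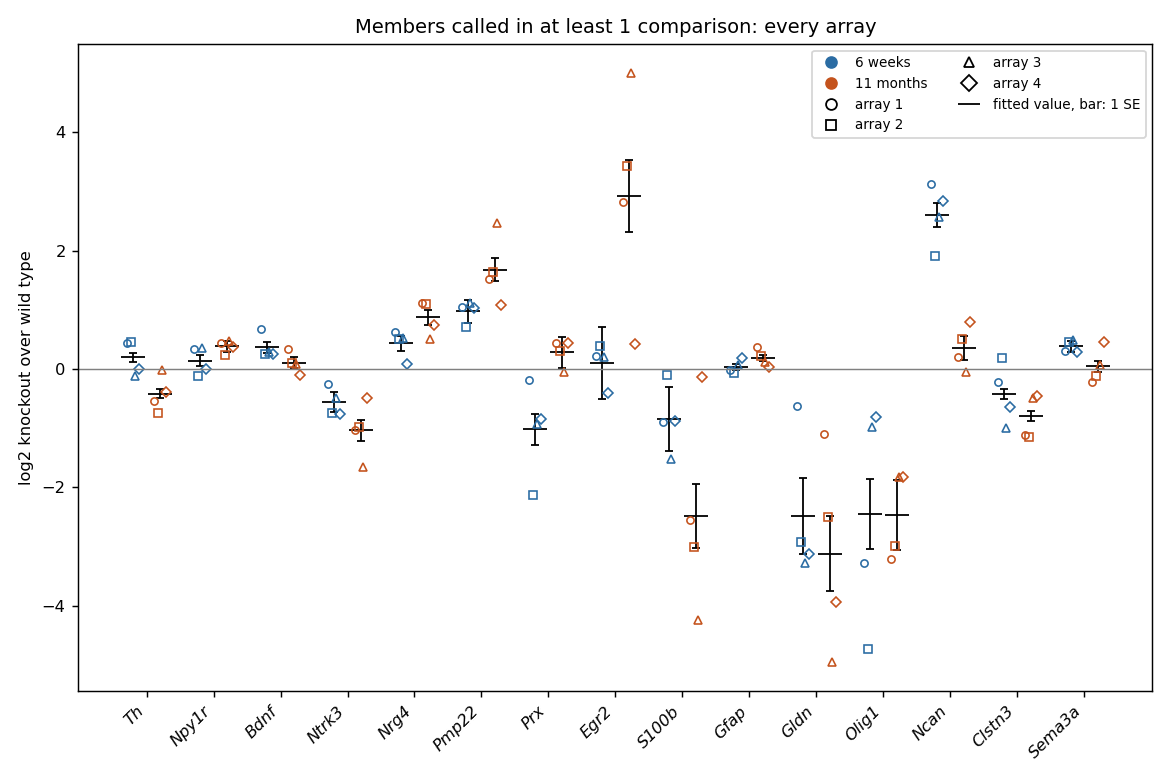
Log2 ratio of knockout over wild type on each array (open symbols, blue for 6 weeks and orange for 11 months) for the 15 members that passed the test in at least 1 comparison, with the fitted value and a bar of 1 SE in black. Ncan is high at 6 weeks, with every array at 1.90 or above, and Gldn and Olig1 are below 0 on all 8 arrays; Egr2 and S100b at 11 months have 3 arrays far from 0 and array 4 near it.

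Tyrosine hydroxylase, encoded by Th, makes the first and rate-limiting step of catecholamine synthesis. At 6 weeks its log2 ratios were 0.44, 0.46, -0.11 and -0.0025 on arrays 1 to 4. At 11 months they were -0.54, -0.74, -0.01 and -0.39. The arrays of each age with the knockout in Cy3 read higher than those with it in Cy5 (arrays 1 and 2 at 6 weeks, arrays 3 and 4 at 11 months), and all arrays at 11 months but array 3 lay below every array at 6 weeks. With the dye in the model the ratio was 0.20 at 6 weeks (SE 0.07, adjusted p = 0.112) and -0.42 at 11 months (SE 0.07, adjusted p = 0.00321, 1.34-fold lower). The change between the ages was -0.62 (SE 0.10, adjusted p = 0.00782), and without a dye term it missed the threshold (adjusted p = 0.0649). With each array centred on its median instead of the intensity-dependent loess, the ratio at 11 months was -0.06 (adjusted p = 0.641), and that at 6 weeks was 0.39 (adjusted p = 0.030). That centring moved the median of all genes at 11 months from 0.012 to 0.18 and the share of higher genes among those called from 51.8% to 76.7%.

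The level of Th, as normalised log2 intensity, was 10.84 ± 0.02 (SD, n = 4) in the knockout and 10.64 ± 0.29 in the wild type at 6 weeks. At 11 months it was 10.10 ± 0.28 in the knockout and 10.52 ± 0.15 in the wild type. Because cAMP acts through a known DNA element, 4 short cores were searched on both strands in the 250 bases before the most upstream start of each tested member with an entry in the RefSeq promoter table (build GRCm38.p6). They were ACAAAG for SOX factors, GTGGGCG for EGR factors, TGACG for the core of the cAMP element and AGGTCA for a nuclear receptor site. Of the 36 members, 26 have an entry, and 18 of the 23 tested. The Th window is shown because it holds the cAMP core on both strands, overlapping by 2 bases into TGACGTCA, with its first base 45 bases before the start. The capitals mark it in this window, chr7:142899996-142900245, minus strand.
Th: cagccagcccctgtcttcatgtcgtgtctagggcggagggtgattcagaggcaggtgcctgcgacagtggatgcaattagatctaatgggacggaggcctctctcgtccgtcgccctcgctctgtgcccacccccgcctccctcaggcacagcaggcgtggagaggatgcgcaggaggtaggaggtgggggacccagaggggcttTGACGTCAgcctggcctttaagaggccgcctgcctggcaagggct
Of the 32851 windows of this length in the table, 17.8% hold TGACG and 1.5% hold TGACGTCA, the longer form having been counted after the match in Th was seen. The other tested member with TGACG in its window was Dbh.

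Dbh encodes dopamine beta-hydroxylase, which turns dopamine into noradrenaline. Its log2 ratios were 0.16, 0.20, 0.04 and -0.02 at 6 weeks and 0.25, 0.01, -0.15 and -0.01 at 11 months, on both sides of 0 at each age. The fitted ratio was 0.09 at 6 weeks (SE 0.08, adjusted p = 0.461), and at 11 months the probe was not well above background on any wild-type array. Npy, the neuropeptide stored with noradrenaline, was above background on 1 knockout array at 6 weeks, and its ratios lay between -0.19 and 0.22 on the 8 arrays. Npy1r, a receptor for that peptide, read 0.34, -0.12, 0.35 and -0.01 at 6 weeks and 0.44, 0.24, 0.48 and 0.37 at 11 months. All 4 arrays at 11 months were above 0, and the fitted ratio was 0.38 (SE 0.09, adjusted p = 0.0141, 1.30-fold higher). Without array 1 or array 3 of that age, Npy1r missed the threshold (adjusted p = 0.0623 and 0.0613), and likewise with 5 spots of very high local background on array 3, left out otherwise and called debris spots here, kept in the background correction (0.29, adjusted p = 0.0509). Stmn2, a microtubule regulator of growing axons, had fitted ratios of 0.21 at 6 weeks (adjusted p = 0.194) and -0.03 at 11 months (adjusted p = 0.846).

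Among the Schwann cell genes, Sox10, Mbp and Mag did not pass the test at either age. Sox10, the transcription factor that Schwann cells need throughout their development, read -0.21, -0.17, -0.05 and 0.02 at 6 weeks and -0.04, -0.11, -0.13 and -0.06 at 11 months. Its ratios were small on all arrays, with fitted values of -0.10 at 6 weeks (SE 0.05, adjusted p = 0.241) and -0.09 at 11 months (SE 0.05, adjusted p = 0.231). The direction of Sox10 at 11 months depends on the scaling: with each array centred on its median the ratio was 0.19 (adjusted p = 0.0185). Its level at 11 months was 8.78 ± 0.04 (SD, n = 4) in the knockout and 8.87 ± 0.06 in the wild type.

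Mbp encodes a structural protein of the myelin sheath. On its brightest probe the log2 ratios were 0.39, 0.04, 0.19 and 0.39 at 6 weeks and 0.10, 0.56, -0.50 and -0.46 at 11 months, with arrays of 11 months on both sides of 0. The fitted ratios were 0.25 (SE 0.13, adjusted p = 0.235) and -0.07 (SE 0.13, adjusted p = 0.685). The other 2 probes of Mbp read -0.16 and -0.03 at 6 weeks and -0.09 and -0.16 at 11 months, none of them past the threshold. Mag, an adhesion protein of the myelin membrane next to the axon, had fitted ratios of -0.07 (adjusted p = 0.625) and 0.0034 (adjusted p = 0.980).

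Pmp22, a membrane protein of compact myelin that fibroblasts and other cells also make, was higher in the knockout at both ages. The log2 ratios of Pmp22 were 1.04, 0.71, 1.11 and 1.04 at 6 weeks and 1.52, 1.64, 2.46 and 1.08 at 11 months. Every array was above 0, and the lowest array at 11 months lay among those of 6 weeks. For Pmp22, limma fitted a ratio of 0.97 at 6 weeks (SE 0.19, adjusted p = 0.019, 1.97-fold higher) and 1.68 at 11 months (SE 0.19, adjusted p = 0.000494, 3.20-fold higher). The change between the ages, 0.70 (SE 0.28, adjusted p = 0.109), did not pass. Without array 1, 3 or 4 of 6 weeks the adjusted p at that age was 0.0886, 0.0778 and 0.0673, and with the mean of both probes the ratio was 0.61 (adjusted p = 0.042). The second Pmp22 probe, at chr11:62971862-62971921 of mm9 against chr11:62972989-62973048 for the brighter, read lower, 0.24 at 6 weeks (adjusted p = 0.233) and 0.64 at 11 months (adjusted p = 0.00553). Of 6 fibroblast markers, 5 were higher in the knockout at 11 months, with a median of 1.31, against 21% of all genes tested. At 6 weeks 0 of the 6 were higher by the test, with a median of 0.17. Array 3 of 11 months had the highest fibroblast median of that age (2.95) and the highest Pmp22, and also the highest macrophage median (1.54). The part of fibroblast RNA in the Pmp22 result was not tested.

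S100b, a calcium-binding protein of glia that adipocytes also make, fell at 11 months. On arrays 1 to 4 S100b read -0.89, -0.10, -1.52 and -0.87 at 6 weeks and -2.54, -3.01, -4.25 and -0.14 at 11 months. Arrays 1 to 3 of 11 months lay below every array of 6 weeks, and array 4 lay among the highest of them. S100b had a fitted ratio of -0.85 at 6 weeks (SE 0.55, adjusted p = 0.344) and -2.48 at 11 months (SE 0.55, adjusted p = 0.00889, 5.60-fold lower). Without array 4 it was -3.30 (adjusted p = 0.00079), and without array 3 it was -1.65 (adjusted p = 0.0119). The level at 11 months was 12.04 ± 1.34 (SD, n = 4) in the knockout and 14.53 ± 0.54 in the wild type. For S100b the change between the ages was -1.64 (SE 0.77, adjusted p = 0.169), and without array 4 of 11 months it passed (-2.45, adjusted p = 0.0163). The 8 brown adipocyte markers, Prdm16 among them, had medians of -2.38, -2.29, -4.07 and -2.40 on the same 4 arrays, lowest on array 3 as S100b was. On array 4 their median was near those of arrays 1 and 2, while S100b read -0.14 there against -2.54 and -3.01. A list of 6 general adipocyte markers went the other way. At 11 months 6 of the 6 were higher in the knockout, with a median of 1.76, against 21% of all genes tested. At 6 weeks 5 of the 6 were higher, with a median of 0.88, against 8.04%. The part of brown or other adipocyte RNA in the fall of S100b was not tested.

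Egr2, a zinc finger transcription factor that Schwann cells require to myelinate and that is also induced early in fat cell formation, rose at 11 months. Its log2 ratios were 0.21, 0.39, 0.20 and -0.40 at 6 weeks and 2.83, 3.43, 4.99 and 0.43 at 11 months. As for S100b, arrays 1 to 3 of 11 months lay far from those of 6 weeks and array 4 just above them. The fitted ratio was 0.10 at 6 weeks (SE 0.61, adjusted p = 0.934) and 2.92 at 11 months (SE 0.61, adjusted p = 0.00687, 7.57-fold higher). Without array 4 the ratio at 11 months was 3.92 (adjusted p = 0.000134), and without array 3 it was 2.09 (adjusted p = 0.0172). In the wild type at 11 months the probe was well above background on 1 of 4 arrays, so this ratio is against a level close to background. Between the ages the change was 2.82 (SE 0.86, adjusted p = 0.0532), and without array 4 of 11 months it passed (3.82, adjusted p = 0.00196). Array 4 of 11 months also had the highest muscle marker median of that age, 1.69, against -0.44, -1.16 and -0.33 on the others. With the muscle median of each array as a covariate, Egr2 read 2.98 at 11 months (adjusted p = 0.0117), and with the scanner software's own log ratio it read 4.48 (adjusted p = 0.00559). The covariate had 1 slope shared by both ages, so it cannot decide the part of muscle RNA on array 4 of 11 months. That part was not tested.

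The window before the most upstream of the 5 starts listed for Egr2 is shown because it holds the EGR core, as CGCCCAC on this strand, with its first base 31 bases before the start. It lies at chr10:67535249-67535498 on the plus strand, and the capitals mark the core.
Egr2: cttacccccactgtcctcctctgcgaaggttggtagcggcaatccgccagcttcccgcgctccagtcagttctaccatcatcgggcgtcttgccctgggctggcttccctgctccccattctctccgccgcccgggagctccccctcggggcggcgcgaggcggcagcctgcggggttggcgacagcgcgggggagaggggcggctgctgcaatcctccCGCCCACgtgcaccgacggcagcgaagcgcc
Of all windows, 7.0% hold GTGGGCG on either strand. Among the 18 tested members with a window, 2 hold it, Egr2 and Nrg4.

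Gldn encodes gliomedin, which Schwann cell microvilli place at the nodes of Ranvier. The log2 ratios of Gldn were -0.63, -2.92, -3.28 and -3.13 at 6 weeks and -1.09, -2.50, -4.95 and -3.94 at 11 months. All 8 arrays were below 0, and array 1 was the nearest to 0 at each age. For Gldn, limma fitted a ratio of -2.49 at 6 weeks (SE 0.64, adjusted p = 0.0412, 5.62-fold lower) and -3.12 at 11 months (SE 0.64, adjusted p = 0.0065, 8.70-fold lower). The change between the ages was -0.63 (SE 0.90, adjusted p = 0.654). At 6 weeks Gldn missed the threshold without array 2, 3 or 4 (adjusted p = 0.122, 0.150 and 0.140) and without array 2 of 11 months (adjusted p = 0.0704), and without array 1 the ratio was -3.36 (adjusted p = 0.0229). With the muscle median of each array as a covariate, Gldn at 6 weeks read -2.50 and missed the threshold as well (adjusted p = 0.0692). At 11 months it was -3.81 without array 1 (adjusted p = 0.00633) and -2.51 without array 3 (adjusted p = 0.0319). Its level at 6 weeks was 7.14 ± 0.58 (SD, n = 4) in the knockout and 9.63 ± 1.71 in the wild type. The Gldn probe was well above background on 3 of 4 knockout arrays at 6 weeks, so the size of that ratio rests on a level near background.

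Olig1 is a transcription factor best known from oligodendrocytes, the myelinating glia of the central nervous system. On arrays 1 to 4 Olig1 read -3.28, -4.73, -0.98 and -0.82 at 6 weeks and -3.22, -3.00, -1.82 and -1.82 at 11 months. All 8 arrays were below 0, and the ranges of the ages overlapped. Olig1 had a fitted ratio of -2.45 at 6 weeks (SE 0.59, adjusted p = 0.0346, 5.47-fold lower) and -2.46 at 11 months (SE 0.59, adjusted p = 0.0132, 5.52-fold lower). The Olig1 level at 6 weeks was 6.95 ± 0.78 (SD, n = 4) in the knockout and 9.40 ± 2.16 in the wild type. In the knockout at 6 weeks the probe was well above background on 3 of 4 arrays, so the size of this ratio rests on a level near background. Leaving out array 1, 2, 3 or 4 of 6 weeks gave adjusted p = 0.147, 0.107, 0.0639 and 0.0507 at that age, and leaving out array 2 of 11 months gave 0.0505. Without array 2 of 6 weeks the ratio at 6 weeks was -1.72. With the muscle covariate Olig1 at 6 weeks read -2.35 and missed the threshold (adjusted p = 0.0546). At 11 months Olig1 missed the threshold without array 1 or 2 of that age (adjusted p = 0.0671 and 0.0681). Of 6 markers of the central nervous system, 4 were tested, with medians of -0.09 at 6 weeks and -0.07 at 11 months. At 11 months 1 was higher, Gfap, which is itself a member, and 1 lower, Mog, where 40.6% of all genes tested passed.

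Prx encodes periaxin, a scaffold protein of the Schwann cell membrane around the myelin sheath, and it was lower in the knockout at 6 weeks. Its log2 ratios were -0.18, -2.12, -0.92 and -0.85 at 6 weeks and 0.44, 0.31, -0.06 and 0.45 at 11 months. Every array of 6 weeks was below every array of 11 months. The fitted ratio was -1.02 at 6 weeks (SE 0.26, adjusted p = 0.0413, 2.03-fold lower) and 0.28 at 11 months (SE 0.26, adjusted p = 0.423), and the change between the ages was 1.30 (SE 0.37, adjusted p = 0.0434). The call at 6 weeks was lost in 10 of 20 alternatives. Without array 2, 3 or 4 of 6 weeks the adjusted p was 0.075, 0.122 and 0.106, without array 1, 2 or 3 of 11 months it was 0.0668, 0.0713 and 0.0506, and without array 2 of 6 weeks the ratio was -0.62. It was also lost with the scanner software's log ratio (adjusted p = 0.0526), with median centring (0.0607) and with each age modelled alone (0.0941). The change between the ages was lost in 10 of 19 alternatives. It missed the threshold without array 3 or 4 of 6 weeks (adjusted p = 0.0884 and 0.089) and without any array of 11 months in turn (0.0929, 0.092, 0.0726 and 0.0898), with the scanner software's log ratio (0.0525), with no filter on dim probes (0.0526) and with a dye term for each age (0.0523). With the muscle median of each array as a covariate, Prx read -0.97 at 6 weeks (adjusted p = 0.0625) and its change between the ages 1.21 (adjusted p = 0.0729).

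Gfap, the intermediate filament of astrocytes and of non-myelinating Schwann cells, read -0.03, -0.07, 0.06 and 0.18 at 6 weeks and 0.38, 0.22, 0.11 and 0.03 at 11 months. It was above 0 on all 4 arrays at 11 months (0.19, SE 0.05, adjusted p = 0.0287). The probe was well above background on 2 knockout arrays and on no wild-type array at that age. Its log2 levels were 6.64 in the knockout and 6.45 in the wild type. The bound set against background was the same as the fitted ratio, 1.14-fold, and Gfap read lower than this in some of the alternatives below. The call of Gfap was lost in 10 of 19 alternatives. Without array 1, 2 or 3 of 11 months the adjusted p was 0.125, 0.0608 and 0.0899. Gfap read 0.059 in the authors' deposited value table (adjusted p = 0.441 in limma), 0.07 with median centring (adjusted p = 0.329) and 0.14 with the scanner software's log ratio (adjusted p = 0.265). The adjusted p was 0.0861 without a dye term, 0.0859 with each age modelled alone, 0.0601 with the replicate number as a block and 0.0514 with the debris spots kept. The other 2 Gfap probes were at 0 of 16 measurements.

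Among the neurotrophic genes the receptor Ntrk3, known as TrkC, was lower and the ligand Nrg4 higher in the knockout at 11 months. Ntrk3 read -0.26, -0.74, -0.48 and -0.75 at 6 weeks and -1.04, -0.98, -1.66 and -0.48 at 11 months. All 8 arrays were below 0 and the ages overlapped. For Ntrk3, limma fitted a ratio of -0.56 at 6 weeks (SE 0.17, adjusted p = 0.0719) and -1.04 at 11 months (SE 0.17, adjusted p = 0.00265, 2.05-fold lower). Without array 3 or array 4 of 11 months the ratio at 6 weeks passed (adjusted p = 0.0174 and 0.0304). At 11 months Ntrk3 read -0.62 with median centring (adjusted p = 0.0256) and -1.57 with the mean of its probes (adjusted p = 0.000858). The 4 Ntrk3 probes fell into 2 pairs by the transcript the array assigns them to. The 2 probes of NM_182809 read -1.04 and -1.18 at 11 months, and the 2 probes of NM_008746 read -2.01 and -2.04. At 6 weeks the first pair read -0.56 and -0.63, and the second -0.97 and -0.91, which alone passed the threshold there (adjusted p = 0.042 and 0.0399). The probes of NM_182809 lie at chr7:85447515-85447574 and chr7:85445908-85445967 and those of NM_008746 at chr7:85392044-85392103 and chr7:85337455-85337514, all on the minus strand of mm9. The difference between the pairs was not tested.

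Neuregulin 4, encoded by Nrg4, is a ligand of the ErbB4 receptor that brown adipocytes secrete and that promotes neurite growth. The log2 ratios of Nrg4 were 0.62, 0.50, 0.52 and 0.09 at 6 weeks and 1.12, 1.104, 0.51 and 0.75 at 11 months. All 8 arrays were above 0, with array 3 of 11 months inside the range of 6 weeks. Nrg4 had a fitted ratio of 0.43 at 6 weeks (SE 0.12, adjusted p = 0.0554) and 0.87 at 11 months (SE 0.12, adjusted p = 0.00123, 1.83-fold higher). At 6 weeks it passed without array 4 of that age (0.59, adjusted p = 0.0293) and without array 3 of 11 months (adjusted p = 0.042). A second Nrg4 probe, which the array maps to the same transcript at chr9:55075745-55084303 against chr9:55068030-55068089 for the brighter, gave -0.05 (adjusted p = 0.817) and 0.03 (adjusted p = 0.865). The rise of Nrg4 therefore holds for 1 of its 2 probes, and their mean gave 0.45 at 11 months (adjusted p = 0.0127).

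The Nrg4 window is shown because it holds the EGR core 3 times and the nuclear receptor core 2 times, more matches than in any other tested member. It lies at chr9:55283626-55283875 on the minus strand, and the capitals mark both kinds of match, GTGGGCG (or CGCCCAC) and TGACCT, the nuclear receptor core read on the other strand. The last pair abuts without overlap, from 26 bases before the start.
Nrg4: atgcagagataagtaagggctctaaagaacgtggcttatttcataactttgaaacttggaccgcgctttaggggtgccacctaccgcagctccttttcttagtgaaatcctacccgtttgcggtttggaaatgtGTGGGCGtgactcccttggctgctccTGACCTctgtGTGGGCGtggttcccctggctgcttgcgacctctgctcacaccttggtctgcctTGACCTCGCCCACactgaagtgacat
Of all windows, 14.0% hold AGGTCA on either strand, and among the 18 tested members 2 hold it, Nrg4 and Gfap. ACAAAG, in 16.5% of all windows, was in 2, Mag and Sema3a. The windows of Pmp22, S100b, Gldn, Clstn3 and Ncan hold none of these letters.

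Bdnf, the ligand of the receptor TrkB, was higher in the knockout at 6 weeks. On arrays 1 to 4 Bdnf read 0.67, 0.26, 0.28 and 0.25 at 6 weeks and 0.34, 0.11, 0.08 and -0.10 at 11 months. All arrays of 6 weeks were above 0, array 1 more than the rest, and array 1 of 11 months lay inside their range. The fitted ratio was 0.37 at 6 weeks (SE 0.10, adjusted p = 0.0458, 1.29-fold higher) and 0.11 at 11 months (adjusted p = 0.420). Without array 1 of 6 weeks it was 0.24 (adjusted p = 0.164). Without array 2, 3 or 4 of 6 weeks the adjusted p was 0.0955, 0.103 and 0.0852, without array 2 or 3 of 11 months it was 0.0783 and 0.0574, and with the muscle covariate 0.0799. The call was also lost with the scanner software's log ratio, where Bdnf read 0.72 (adjusted p = 0.0604), and when dim probes were not filtered out (0.0521), so 9 of 20 alternatives ended it.

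The remaining neurotrophic members did not pass. Ntf3, the ligand of TrkC, had fitted ratios of -0.39 at 6 weeks (SE 0.15, adjusted p = 0.134) and -0.16 at 11 months (adjusted p = 0.457). Ngfr, the p75 receptor shared by the neurotrophins and present on Schwann cells, had -0.03 (adjusted p = 0.901) and 0.21 (adjusted p = 0.228). Ntrk2, which encodes TrkB, had 0.04 (adjusted p = 0.891) and 0.28 (adjusted p = 0.184) on the brightest of its 3 probes, and at 11 months it passed without array 3 (0.50, adjusted p = 0.011). Its other 2 probes read below 0 at 11 months, -0.29 and -0.19, without passing.

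Clstn3 encodes calsyntenin 3, a synaptic adhesion protein of which brown fat makes a form that promotes its sympathetic innervation, and it was lower in the knockout at both ages. Its log2 ratios were -0.22, 0.18, -1.005 and -0.65 at 6 weeks and -1.12, -1.14, -0.49 and -0.45 at 11 months. In each age the arrays with the knockout in Cy5 read lower than those with it in Cy3. With the dye in the model the ratio was -0.42 at 6 weeks (SE 0.08, adjusted p = 0.019, 1.34-fold lower) and -0.80 at 11 months (SE 0.08, adjusted p = 0.000329, 1.75-fold lower). For Clstn3 the change between the ages was -0.38 (SE 0.12, adjusted p = 0.0593), and without array 3 of 6 weeks it passed (-0.47, adjusted p = 0.0435). At 6 weeks Clstn3 missed the threshold without array 1 or 3 of that age (adjusted p = 0.0951 and 0.0783), without a dye term (adjusted p = 0.214) and with median centring (-0.18, adjusted p = 0.334). That centring gave -0.42 at 11 months (adjusted p = 0.0217). The level at 11 months was 14.20 ± 0.29 (SD, n = 4) in the knockout and 15.00 ± 0.35 in the wild type. The array has 1 probe for this gene, at chr6:124380788-124380847 of mm9, and which forms of the transcript it reads was not examined.

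Ncan encodes neurocan, a chondroitin sulfate proteoglycan of the nervous system's extracellular matrix, and it had the largest rise of the members at 6 weeks. The log2 ratios of Ncan were 3.12, 1.90, 2.57 and 2.85 at 6 weeks and 0.20, 0.51, -0.05 and 0.79 at 11 months. Every array of 6 weeks was above every array of 11 months. For Ncan, limma fitted a ratio of 2.61 at 6 weeks (SE 0.20, adjusted p = 0.000772, 6.10-fold higher) and 0.36 at 11 months (SE 0.20, adjusted p = 0.197). Between the ages the change was -2.25 (SE 0.29, adjusted p = 0.00343). The level was 9.94 ± 0.73 (SD, n = 4) in the knockout and 7.34 ± 0.26 in the wild type at 6 weeks, and 8.60 ± 0.32 and 8.24 ± 0.10 at 11 months. Ncan was the only member whose calls at 6 weeks and between the ages were kept in every alternative run.

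Sema3a, a secreted repellent of sympathetic and sensory axons, read 0.31, 0.46, 0.48 and 0.29 at 6 weeks and -0.22, -0.12, 0.07 and 0.45 at 11 months. It was above 0 on all arrays of 6 weeks (0.38, SE 0.09, adjusted p = 0.0342). The probe was well above background on 2 knockout arrays and no wild-type array at 6 weeks, so the ratio is only bounded, at least 1.18-fold higher, from log2 levels of 6.67 and 6.29. Leaving out array 1, 2, 3 or 4 of 6 weeks gave adjusted p = 0.0646, 0.0949, 0.134 and 0.104, and leaving out array 2 of 11 months gave 0.0606. The call of Sema3a was also lost with median centring (0.30, adjusted p = 0.124) and without a dye term (adjusted p = 0.0529), 7 of 19 alternatives in all. Its size depended on the source of the ratio, with 2.04 from the scanner software (adjusted p = 0.0103) and 0.63 in the authors' deposited value table (adjusted p = 0.0102).

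**Figure D3:**
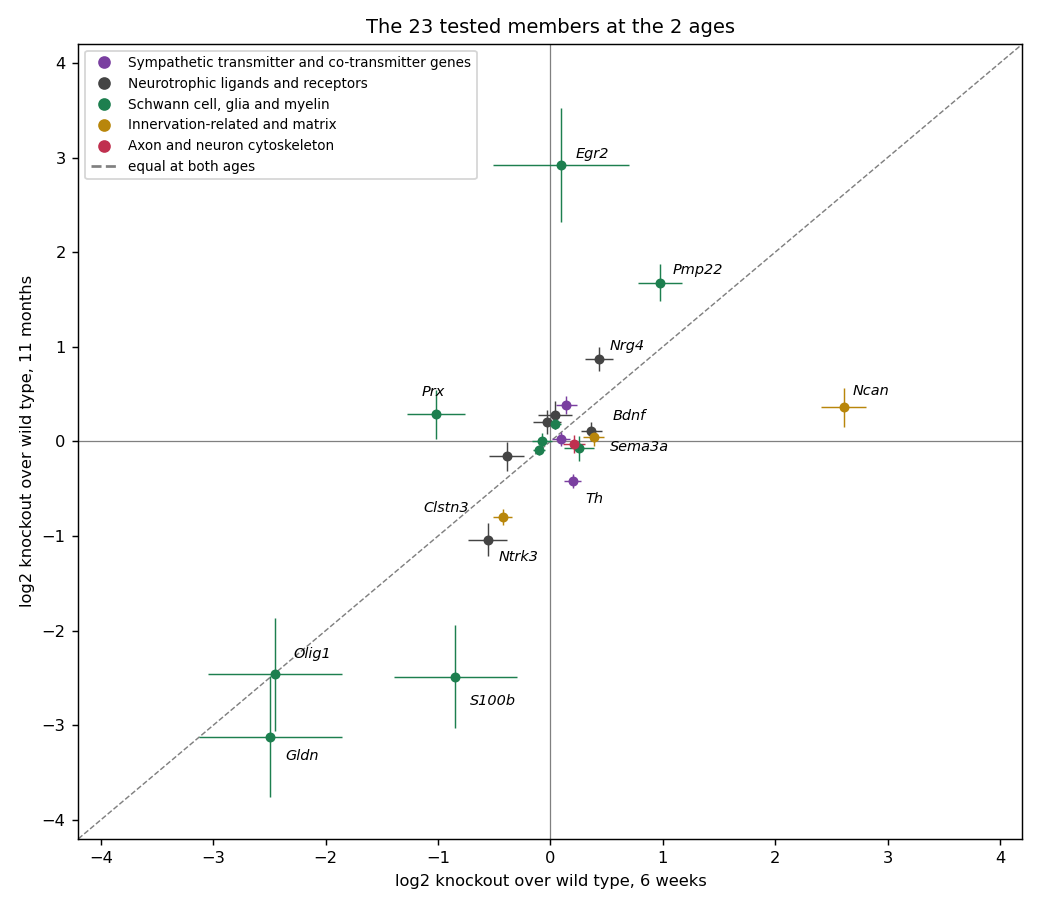
Fitted log2 ratio of knockout over wild type at 6 weeks (horizontal axis) and 11 months (vertical axis) for the 23 tested members, coloured by role, with bars of 1 SE; the dashed line marks equal ratios. Gldn and Olig1 lie far below 0 and Pmp22 above 0 at both ages, Egr2 is high at 11 months alone on the axes (2.92 against 0.10), and Ncan at 6 weeks (2.61 against 0.36).

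The genes that passed at both ages were 4, Pmp22, Gldn, Olig1 and Clstn3, each in 1 direction (17.4% of the 23 tested members, against 7.61% of all genes tested). By role, 4 of 10 tested Schwann cell, glia and myelin genes passed at 6 weeks and 6 of 10 at 11 months (5 of 9 without Gfap), with medians of -0.09 and -0.04. Of 6 tested neurotrophic genes, 1 passed at 6 weeks and 2 at 11 months, with medians of 0.0053 and 0.16. Of 3 tested genes of the transmitter group, 2 passed at 11 months, Th lower and the receptor gene Npy1r higher. Of 3 tested innervation-related and matrix genes, 3 passed at 6 weeks and 1 at 11 months. The 6-week call of Sema3a, among these, was not independent of the filter. Of all genes tested, 14.1% passed at 6 weeks and 40.6% at 11 months. No test between roles was made.

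Other genes of the same pathways, from lists that were also drawn up with earlier results of these data known, are given for comparison. Of 28 further genes of sympathetic neurons, 20 were tested, and 3 were higher and 2 lower at 6 weeks (25%, against 14.1% of all genes) and 4 higher and 2 lower at 11 months (30%, against 40.6%), with medians of -0.03 and 0.03. Mapt, the axonal microtubule protein tau, had the largest change, -1.53 at 6 weeks (SE 0.30, adjusted p = 0.017) and -1.27 at 11 months (SE 0.30, adjusted p = 0.0115). Rtn1 (0.50, adjusted p = 0.00515) and Cyb561, a protein of catecholamine storage vesicles (0.63, adjusted p = 0.00531), rose at 11 months, Cyb561 by 0.99 with median centring (adjusted p = 0.00103). For Rtn1 the change between the ages in limma was 0.65 (SE 0.14, adjusted p = 0.0165). At 6 weeks the call of Mapt was lost without array 1, 2 or 3 of that age (adjusted p up to 0.0845), and Mapt at 11 months without array 1 or 3, at up to 0.0602. The noradrenaline transporter gene Slc6a2 was too dim to be tested.

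Of 25 further Schwann cell and myelin genes, 21 were tested, with 3 higher at 6 weeks (14.3%, against 14.1%) and 2 higher and 1 lower at 11 months (14.3%, against 40.6% of all genes), and with medians of -0.03 and 0.10. The sodium channel gene Scn7a rose at both ages, by 0.57 (adjusted p = 0.046) and 1.39 (adjusted p = 0.000371), and the change between the ages was 0.83 (adjusted p = 0.0324). Pllp, a proteolipid of myelin, rose at both ages, by 0.85 (adjusted p = 0.0397) and 1.11 (adjusted p = 0.00502). Gjb1, which encodes connexin 32, rose at 6 weeks (0.30, adjusted p = 0.0313), and Pou3f1, a transcription factor of promyelinating Schwann cells, fell at 11 months (-0.21, adjusted p = 0.0175). At 6 weeks Scn7a missed the threshold without any array of that age in turn or array 1 or 2 of 11 months (adjusted p up to 0.166), and its change between the ages without array 1, 2 or 4 of 6 weeks or array 1 or 2 of 11 months (up to 0.0928). The muscle covariate ended the 6-week calls of Scn7a (adjusted p = 0.0691), Pllp (0.0643) and Gjb1 (0.0619) and the change of Scn7a between the ages (0.0634). Other settings that ended a call at 6 weeks were no filter on dim probes for Scn7a (0.0542), the debris spots kept for Pllp (0.0709) and the scanner software's log ratio for Gjb1 (0.0585). That log ratio gave Scn7a 0.96 and 2.10 at the ages in turn and Pllp 2.37 at 11 months, the debris spots gave Scn7a a change between the ages of 0.49, and median centring gave Gjb1 0.47 at 6 weeks, all past the threshold (adjusted p up to 0.0409). Pllp missed it at 6 weeks without array 2, 3 or 4 of that age or array 1 or 2 of 11 months (up to 0.138), and Gjb1 without any array of 6 weeks in turn or array 2 of 11 months (up to 0.133). Pou3f1 missed it at 11 months without array 1 or 3 of that age (up to 0.0693), with each age modelled alone (0.057) and with the debris spots kept (0.06). With median centring Pou3f1 read -0.0094 (adjusted p = 0.907) and with the scanner software's log ratio -0.34 (adjusted p = 0.00696).

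Of 30 further neurotrophic and guidance genes, 24 were tested. At 6 weeks 2 were higher and 2 lower (16.7%, against 14.1% of all genes), and at 11 months 10 were higher and 5 lower (62.5%, against 40.6%), with medians of -0.02 and 0.24. The axon guidance ligand Slit3 rose at 11 months (1.50, SE 0.10, adjusted p = 6.16e-05), and its change between the ages was 1.36 (adjusted p = 0.00227). Sort1, the sortilin that binds precursors of the neurotrophins, rose at 11 months (0.94, SE 0.06, adjusted p = 4.45e-05), with a change between the ages of 0.72 (adjusted p = 0.00273). It was also called higher at 6 weeks in limma (0.22, SE 0.06, adjusted p = 0.0454), a call lost in 14 of 20 alternatives. Sema3c, a relative of Sema3a, rose at 11 months (1.39, adjusted p = 0.00802). Erbb4, the receptor of Nrg4, was lower at 6 weeks (-1.34, SE 0.25, adjusted p = 0.0145), a call that was lost without array 1, 3 or 4 of 6 weeks (adjusted p up to 0.0737) and with the scanner software's log ratio (-1.97, adjusted p = 0.0974), and read -0.71 at 11 months (adjusted p = 0.053).

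**Figure D4:**
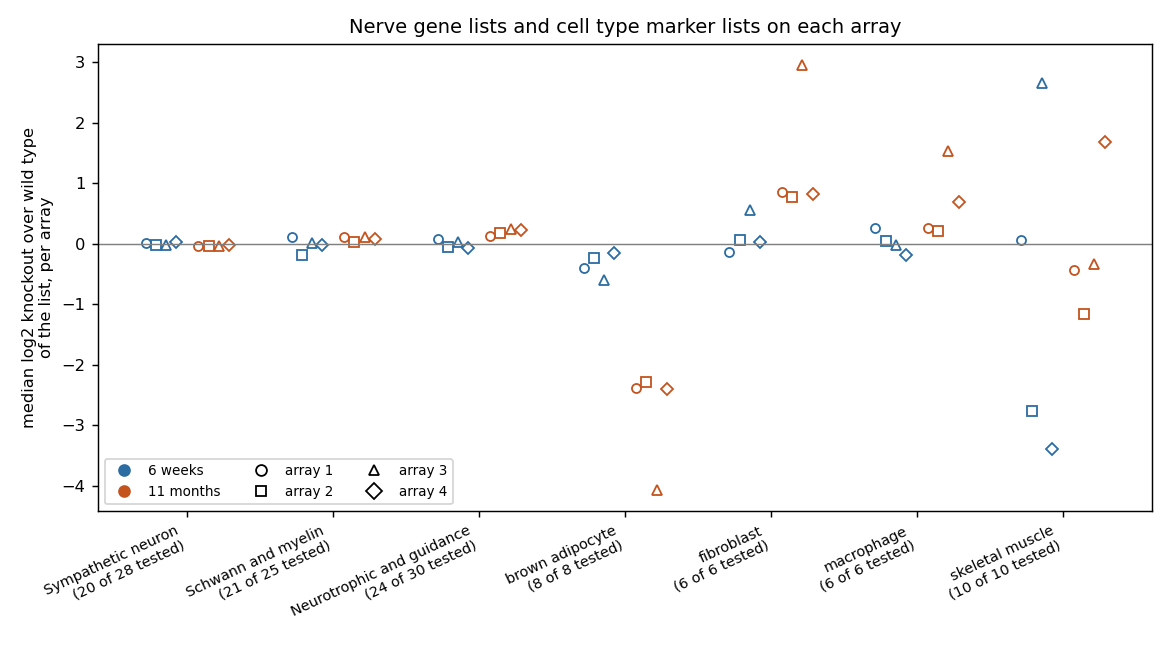
Median log2 ratio of knockout over wild type on each array for 3 lists of nerve genes and 4 lists of cell type markers (blue for 6 weeks, orange for 11 months, symbol for the array). The sympathetic and Schwann lists stay near 0 on all 8 arrays, the brown adipocyte markers lie between -4.07 and -2.29 at 11 months, fibroblast and macrophage medians are highest on array 3 of 11 months, and skeletal muscle spreads widely among arrays of 1 age.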

How the data were processed

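Total RNA (200 ng per sample, per the labels) from knockout and wild-type brown adipose tissue was hybridised with a dye swap to 8 arrays. The deposited scanner files hold mean foreground and median background intensity per spot; per the file headers, they came from Agilent Feature Extraction (10.5.1.1 at 6 weeks, 10.10.1.1 at 11 months), which also wrote the deposited log10 ratio. The authors' deposited value table holds log2 ratios, and the submitters' processing notes name limma. From the intensities, ratios were recomputed with limma 3.58.1 (normexp, offset 50; loess within arrays, control spots at weight 0) with the sign set from the labelled dyes, so that a positive value means more in the knockout. On array 3 of 11 months, 5 spots with a local background over 5 times the array's median were left out before normexp, because they widened its noise estimate; this was decided after seeing the data, and the fit with them is an alternative. A probe was kept if at least 4 of its 16 channel readings were well above background and 3 or more arrays of each age had a value (26853 of 39429), and the probe with the highest mean intensity stands for a gene. A linear model (lmFit, eBayes) gave each age its own coefficient and shared a dye coefficient, with 5 residual degrees of freedom, and p-values were adjusted by Benjamini-Hochberg over 21742 genes; under 0.05 a gene is called higher or lower. The same model was also run over all 26853 kept probes. The adjusted p-values of a gene's further probes, of the Ntrk3 probe pairs and of the Ncmap probes come from that run. Ratios per array in the text are before the dye term. Of these genes, 14809 were named through their accession in the RefSeq table and 6933 as on the array. Levels are log2 intensities after Aquantile normalisation; a bound sets the bright genotype's mean against the higher, per array, of the dim probe's signal and the lowest signal well above background. On simulated ratios over 21742 genes, the fit recovered 76% of log2 changes of 1 and 96% of those of 2 at 6 weeks, and 80% and 100% at 11 months. The simulation changed 50 genes of each size per age, far fewer than were called in the data. Its noise was independent between genes, without shifts shared by many genes of an array. These shares are thus a check of the fit and not the recovery in the data. All 36 members are named, with values per array for those called and for Th, Dbh, Npy, Mbp, Sox10, S100b and Nrg4; of each further list the 4 called genes with the largest change are named, except for an item that is not reported here. The members and lists were chosen with earlier results of these data known. Probe positions are those the files give (mm9), and promoter windows are RefSeq's (GRCm38.p6). Replicate numbers shared by the ages were not taken to pair mice. Same-numbered arrays, with the dye removed within each age, correlated at 0.0219 to 0.0927. With 2 arrays per dye and age, the residuals of the 2 mirror each other, so this check cannot decide the question. With the shared dye term removed instead, the correlations were 0.276 to 0.477, values that also hold any dye effect that differs between the ages. Marker lists of other cell types were counted in the same fit.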

Additional observations from a re-analysis of the deposited data

Results flagged for a closer look

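Of 46 sets of 4 arrays (23 tested members at 2 ages), 2 had an array whose gap to the nearest other exceeded Dixon's critical value, where chance flags about 1 in 20. Bdnf at 6 weeks read 0.673 on array 1 against 0.249 to 0.280 on the others (gap 0.927 of the range). Gldn at 6 weeks read -0.628 on array 1 against -3.28 to -2.92 on the others (gap 0.864 of the range). The effect of the knockout differed between the ages, by the test of the difference itself in limma, for 3 members. Th changed by -0.62 from 6 weeks to 11 months (adjusted p = 0.00782), Prx by 1.30 (adjusted p = 0.0434) and Ncan by -2.25 (adjusted p = 0.00343). All 4 Ncan arrays of 6 weeks were above all 4 of 11 months, and all 4 Prx arrays of 6 weeks below.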

How the results depend on the processing

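Across 20 alternatives, 1348 values for the 23 tested members gave 1244 on the same side of the threshold with no called change of direction, 71 calls lost, 32 gained and 1 reversed, Sox10 at 11 months with median centring (0.19). At 11 months 7 of 11 member calls were kept in all alternatives (Ntrk3, Nrg4, Pmp22, Egr2, S100b, Gldn and Clstn3), at 6 weeks 1 of 8 (Ncan) and between the ages 1 of 3 (Ncan). Leaving out each array in turn gave 1 to 9 member calls at 6 weeks (8 with all arrays), 8 to 11 at 11 months and 2 to 6 between the ages, and 934 to 3871, 6507 to 8697 and 2363 to 4392 calls among all genes; the 6-week count of members was 3, 3, 1 and 3 without arrays 1, 2, 3 and 4 of 6 weeks and 3 without array 2 of 11 months, and that between the ages was 6 without array 4 of 11 months. Chosen after seeing the data, the muscle median as a covariate gave 4 member calls at 6 weeks, and 2029 and 2973 calls among all genes at 6 weeks and between the ages. Normexp fitted with the debris spots, also added later, gave 10, 9 and 4 member calls and 3520, 7539 and 3951 among all genes. The deposited value table gave 5 member calls between the ages; its columns have medians from -0.05 to 0.084, their direction was found from the scanner ratios, and how the authors centred them is not known. Median centring called 2744 higher and 740 lower genes at 6 weeks, 8882 and 2698 at 11 months and 3395 and 1246 between the ages, against 1749 and 1307, 4564 and 4255, and 2132 and 2429. With the replicate number as a block, which was not taken to pair the mice, 9, 10 and 4 members and 3622, 9149 and 4926 genes were called. Signal limits the neuron genes on the list: 12 members were too dim to be tested.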

Other observations

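Ncmap, a myelin protein of peripheral nerve, has no probe under its name, but 2 probes that the array names A330049M08Rik carry its accession, NM_145555, in the RefSeq table. On the brighter, at chr4:134925825-134925884 of mm9, the log2 ratios were -0.37, -1.99, -0.80 and -0.77 at 6 weeks and 0.35, 0.33, -0.02 and 0.41 at 11 months. The fitted values of this Ncmap probe in limma were -0.98 at 6 weeks (SE 0.22, adjusted p = 0.0258) and 0.27 at 11 months (SE 0.22, adjusted p = 0.371), with a change between the ages of 1.25 (SE 0.31, adjusted p = 0.0291). The second Ncmap probe gave -0.77 (adjusted p = 0.029) and -0.05 (adjusted p = 0.864), with a change of 0.72 (adjusted p = 0.0812). On both Ncmap probes array 2 of 6 weeks was the lowest, as for Prx, whose ratios there were -0.18, -2.12, -0.92 and -0.85. These probes were looked up after the values of Prx were seen.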
